A study of Mus musculus with 2 samples.

Results

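The genes described here are 10 sensors, chaperones and folding helpers of the endoplasmic reticulum (ER), namely Ern1, Atf6, Eif2ak3, Xbp1, Hspa5, Hsp90b1, Dnajb9, Ero1l, Herpud1 and Tmbim6. They were taken by symbol from the 32285 genes of the deposited tables, and all 10 were found once. Nuclei from the brown adipose tissue of 8-week-old mice were sequenced in 1 library per genotype. The WT library is labelled wild type and, by the study's methods, comes from Srsf1 fl/fl mice without Cre. The KO library is labelled SRSF1-KO and comes from Adipoq-Cre; Srsf1 fl/fl mice, in which Cre is driven by the promoter of the adipocyte gene Adipoq, so that Srsf1, a splicing factor, is deleted in adipocytes. The floxed Srsf1 allele is thus shared by both libraries. How many mice each library holds was not given in the sources used here. With 1 library a genotype there is no replicate error, no test was possible, and every interval below covers counting error only.

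The ER folds secreted and membrane proteins, and the unfolded protein response adjusts its capacity. A set of membrane proteins senses misfolded protein in the lumen. IRE1α, encoded by Ern1, is a kinase and RNase that splices Xbp1 mRNA into the form that encodes an active transcription factor. ATF6 moves to the Golgi and is cut there into a transcription factor, and PERK, encoded by Eif2ak3, phosphorylates eIF2α and slows translation. The chaperone BiP, encoded by Hspa5, holds the sensors inactive in the unstressed state. In fat, ER function matters for secretion of adipokines and for lipid handling. A 3′ UMI count gives the amount of a transcript and says nothing of Xbp1 splicing or of the activity of a sensor.

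The proteins XBP1 and ATF6 act on chaperone genes through the ER stress response element (ERSE, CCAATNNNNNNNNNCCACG) and its shorter relative ERSE-II (ATTGGNCCACG), both of which end in CCACG. RefSeq promoters of GRCm38.p6, from 250 bases before to 50 after the start, were matched for 8 of the 10 genes, with Ero1l listed as Ero1a. Atf6 and Tmbim6 were not matched. Searched on both strands, ERSE stood in 2 of the 8 promoters, those of Hspa5 and Hsp90b1, against 0.119% of all 32817 promoters. ERSE-II stood in 1, that of Herpud1, against 0.0366%. The Herpud1 promoter also held TGATGNAA, the core of the amino acid response element that ATF4 binds, which 3.97% of all promoters held. The element TGACGTGG was in none of the 8 promoters and in 0.676% of all. The 3 windows that hold these letters are shown because they belong to the chaperone and degradation genes whose levels hardly differed between the libraries. Distances are counted from the RefSeq start, which differs from the outer edge of the GENCODE gene given further down, so that the Hspa5 window lies inside the GENCODE gene. The windows are written 5′ to 3′ on the gene's strand, with the matches in capitals.
Hspa5 (chr2:34772005-34772063, plus strand, 85 to 27 bases before the start): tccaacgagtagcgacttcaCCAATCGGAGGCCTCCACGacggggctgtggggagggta
Hsp90b1 (chr10:86705513-86705676, minus strand, 232 to 69 bases before the start): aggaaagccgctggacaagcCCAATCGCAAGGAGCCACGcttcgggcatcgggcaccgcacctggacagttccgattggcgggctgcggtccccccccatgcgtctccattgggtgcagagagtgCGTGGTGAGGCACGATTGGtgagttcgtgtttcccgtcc
Herpud1 (chr8:94386297-94386407, plus strand, 132 to 22 bases before the start): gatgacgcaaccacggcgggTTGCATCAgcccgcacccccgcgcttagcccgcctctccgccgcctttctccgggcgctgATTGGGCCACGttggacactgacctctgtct
The second match of Hsp90b1 and the TGATGNAA match of Herpud1 lie on the opposite strand, so their letters read as the reverse complement. A match is a description of letters and not evidence of binding.

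The tables held 12846 WT and 11495 KO barcodes, with medians of 3440 and 4363 UMIs, of which 12771 and 11378 nuclei were kept. The 2 sets of kept nuclei shared 50 barcodes. Mitochondrial transcripts made up a median of 1.097% of UMIs in the kept WT nuclei and 0.0489% in the kept KO nuclei. Nuclei were put into cell classes by summed marker genes. This gave 3925 WT and 1979 KO adipocyte nuclei, 258 and 1632 nuclei of adipose stem and progenitor cells (ASPCs), 1754 and 909 endothelial, 387 and 3090 immune, and 296 and 169 mural nuclei, while 47.2% and 31.2% of nuclei were not assigned. Srsf1 in adipocyte nuclei was 182 CPM (UMIs per 1000000 UMIs of the class) in WT and 62.4 CPM in KO, a log2 ratio of -1.54. The 8 markers that define the adipocyte class summed, as the calling rule sets, to 1.28% of UMIs in WT and 1.15% in KO adipocyte nuclei. Of these, Pparg, the central adipocyte transcription factor, differed by a log2 ratio of -0.995 and Plin4, a lipid droplet coat protein, by 2.98. The thermogenic marker Ucp1 was 1699 CPM in WT and 54.1 CPM in KO. The adipocyte class is cut from a score, and 1013 WT and 502 KO nuclei lay within 10% of the cut.

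In adipocyte nuclei, 4 of the 10 genes were at least 2-fold higher in the KO library, namely Ero1l, Ern1, Xbp1 and Tmbim6. The ER oxidase gene Ero1l differed most, by 6.31-fold, followed by the sensor gene Ern1 at 2.60-fold. The chaperone genes Hspa5 and Hsp90b1 were within 1.06-fold of WT. No member was at least 2-fold lower. Of all 15290 genes with at least 50 UMIs in these nuclei, 19.7% were at least 2-fold higher in KO and 17.1% at least 2-fold lower. The median log2 ratio of the 10 genes was 0.19, against 0.08 over all genes.

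**Figure D1:**
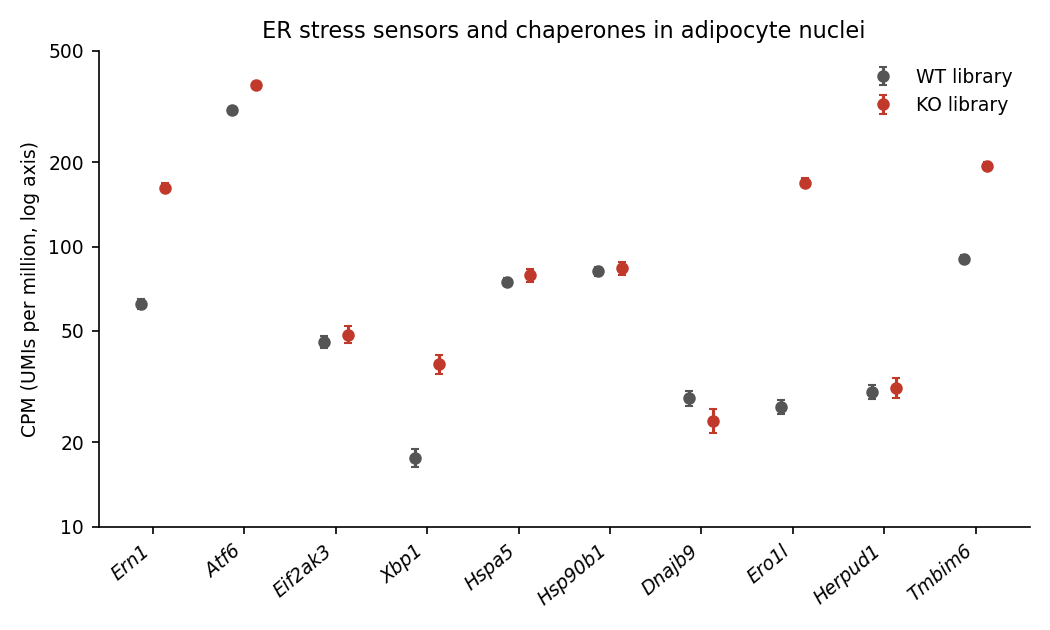
Level of each of the 10 genes in adipocyte nuclei, in CPM on a log axis, for the WT library (grey) and the KO library (red), with exact 95% Poisson intervals. Ern1, Xbp1, Ero1l and Tmbim6 lie well apart between libraries, while Hspa5, Hsp90b1, Herpud1 and Eif2ak3 lie close together.

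The 3 sensor genes differed from each other in their response. Ern1 (ENSMUSG00000020715, chromosome 11, bases 106394650 to 106487852, minus strand, GRCm38) was 62.4 CPM in WT adipocyte nuclei (95% interval 60.0 to 64.9) and 162 CPM in KO (156 to 168). Its log2 ratio was 1.38 (1.30 to 1.46), above that of 86.7% of genes tested. Of the WT adipocyte nuclei, 37.4% held a UMI of Ern1, and of the KO ones 54.0%, which became 5.86% and 14.9% after each nucleus was thinned to 1000 UMIs, which left out 69 WT and 14 KO nuclei. At this thinned depth the share of nuclei with a UMI largely follows the summed level. It therefore cannot tell more expressing nuclei from a higher level per nucleus.

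Atf6 (chromosome 1, 170704674 to 170867771, minus strand) was 307 CPM in WT (301 to 312) and 376 CPM in KO (367 to 386). The intervals did not overlap, but the log2 ratio of 0.30 (0.25 to 0.34) was short of 2-fold. Atf6 was found in 78.8% of adipocyte nuclei of each library, and in 25.5% and 30.2% after thinning.

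Eif2ak3 (chromosome 6, 70844515 to 70905245, plus strand) was 45.6 CPM in WT (43.6 to 47.8) and 48.5 CPM in KO (45.3 to 51.9). These intervals overlapped, and that of its log2 ratio, 0.09 (-0.03 to 0.21), included 0. Of the sensor genes, Ern1 alone was past 2-fold.

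Xbp1 (chromosome 11, 5520659 to 5525893, plus strand), whose mRNA is the substrate of IRE1α, was 17.6 CPM in WT (16.3 to 18.9) and 38.0 CPM in KO (35.2 to 41.0). The intervals were far apart, and the log2 ratio was 1.11 (0.96 to 1.27), above that of 82.5% of genes. The share of nuclei with an Xbp1 UMI was 14.0% in WT and 24.0% in KO, and 1.89% and 3.77% after thinning.

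The lumenal chaperones were at near-equal levels. Hspa5 (chromosome 2, 34771970 to 34777547, plus strand), the main chaperone of the lumen and the bearer of the ERSE shown above, was 74.7 CPM in WT (72.0 to 77.4) and 79.0 CPM in KO (74.9 to 83.3). Its log2 ratio of 0.08 (-0.01 to 0.17) ranked above that of 50.2% of genes. Hsp90b1 (chromosome 10, 86690209 to 86705509, minus strand), which encodes the ER member of the HSP90 family, GRP94, was 81.6 CPM in WT (78.8 to 84.4) and 83.5 CPM in KO (79.2 to 87.9). The gene overlaps Gm15344 on its strand, between which the counting may split reads. Its log2 ratio was 0.03 (-0.06 to 0.12), so both chaperones bounded any rise in these libraries at well under 2-fold.

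Dnajb9 (chromosome 12, 44205559 to 44210326, minus strand), a co-chaperone of BiP that helps to keep IRE1α inactive, was the one member lower in KO by an interval without 0. It was 28.7 CPM in WT (27.1 to 30.4) and 23.9 CPM in KO (21.6 to 26.3), a log2 ratio of -0.27 (-0.43 to -0.10). When cell classes were taken from named clusters instead of marker sums, its log2 ratio was -0.009.

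Ero1l (chromosome 14, 45283087 to 45318771, minus strand) encodes the oxidase that passes electrons from protein disulfide isomerase to oxygen. It was 26.8 CPM in WT (25.2 to 28.4) and 169 CPM in KO (163 to 175). The log2 ratio of 2.66 (2.56 to 2.76) was above that of 96.1% of genes. Nuclei with an Ero1l UMI made up 20.4% of the WT and 51.5% of the KO adipocyte class, or 2.52% and 14.2% after thinning. Its paralog Ero1lb was 9.64 CPM in WT and 10.3 CPM in KO, with a log2 ratio of 0.10 (-0.17 to 0.36), so the difference between libraries was much larger for Ero1l than for Ero1lb.

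Herpud1 (chromosome 8, 94386438 to 94395377, plus strand), a membrane scaffold of ER-associated degradation, was 30.3 CPM in WT (28.6 to 32.1) and 31.3 CPM in KO (28.7 to 34.0). The intervals overlapped at a log2 ratio of 0.05 (-0.10 to 0.19). Tmbim6 (chromosome 15, 99392882 to 99410049, plus strand), also called Bax inhibitor-1, encodes an ER membrane protein that restrains calcium release and IRE1α. It was 90.6 CPM in WT (87.7 to 93.6) and 194 CPM in KO (188 to 201). The log2 ratio was 1.101 (1.03 to 1.17), and the share of nuclei with a UMI was 48.4% in WT and 65.1% in KO, or 8.27% and 17.5% after thinning. With classes from marker sums, the genes whose products restrain IRE1α thus differed in KO adipocyte nuclei. Tmbim6 was higher, Dnajb9 slightly lower and Hspa5 at a near-equal level.

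These ratios were compared at matched depth, since adipocyte nuclei had a median of 7381 UMIs in WT and 6621 in KO. Ern1 had log2 ratios of 1.69, 1.41 and 1.34 in nuclei with under 4000 UMIs, from 4000 up to 8000, and with 8000 or more. Xbp1 had 1.05, 1.48 and 0.96, Ero1l had 2.77, 2.88 and 2.54, and Tmbim6 had 1.14, 1.15 and 1.07. The same 4 genes were higher in KO in each depth range, with Xbp1 just short of 2-fold in the deepest. Several ratios moved with depth, that of Atf6 from 0.45 (0.37 to 0.53) in the middle range to 0.22 (0.16 to 0.27) in the deepest, and that of Hspa5 changed sign. Hspa5 was 116 CPM in the shallowest WT nuclei and 70.3 CPM in the deepest, against 78.6 and 79.1 CPM in KO, so its log2 ratio went from -0.56 (-0.97 to -0.16) to 0.17 (0.06 to 0.28).

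Markers of other cells also differed between adipocyte nuclei of the libraries. The endothelial list summed to 0.0722% of UMIs in WT and 0.0199% in KO, and the immune list to 0.0133% and 0.0466%. Subclusters of the adipocyte nuclei, 9 in all, were therefore compared. Subclusters 0 to 5 were mostly from WT and 6 to 8 mostly from KO, so that subcluster and genotype cannot be told apart. Subcluster 3 was led by endothelial genes such as Cyyr1, subcluster 4 by mural genes such as Abcc9 and subcluster 6 by macrophage genes such as Mmp12, with 39.6%, 19.9% and 20.5% of their nuclei among the top 10% of doublet scores. Subcluster 2 was shallow, at a median of 1292 UMIs, and led by mitochondrial genes. Without these 4 subclusters, the same 4 genes were at least 2-fold higher in KO, as were 20.7% of all genes.

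Ern1 and Ero1l separated the libraries in every subcluster with at least 100 nuclei. Ern1 spanned 51.6 to 71.2 CPM over the 6 WT subclusters and 137 to 195 CPM over the 3 of KO. Ero1l spanned 22.5 to 32.6 CPM in WT and 121 to 227 CPM in KO. Tmbim6 did likewise, with 73.4 to 107 CPM in WT and 171 to 231 CPM in KO. All 3 were highest in subcluster 8, the largest of KO with 1070 nuclei, led by Kng1 and including Gdf15 among its leading genes.

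Xbp1 also differed among the WT subclusters. It was 43.6 CPM (35.5 to 53.1) in subcluster 0, whose 219 WT nuclei had the highest level of Nnat and of Slc7a10, fixed as white adipocyte markers, among WT subclusters. It was 8.53 CPM (6.83 to 10.5) in subcluster 5, where Ppargc1a, the coactivator of thermogenic genes, was highest at 8718 CPM. In KO it was 51.0 CPM (45.3 to 57.4) in subcluster 7, where Slc7a10 was 406 CPM, and 30.2 CPM (26.1 to 34.8) in subcluster 8, where Slc7a10 was 28.8 CPM. In each library the subcluster with the most Slc7a10 thus had the highest Xbp1, and the intervals of subclusters 0 and 7 overlapped across genotypes. Atf6 had the opposite order, with its lowest levels in subcluster 0 of WT at 175 CPM and in subcluster 7 of KO at 263 CPM, and its highest in subclusters 1 at 331 CPM and 8 at 493 CPM. Over the 6 WT subclusters Hspa5 was between 50.7 and 143 CPM, the highest being the shallow subcluster 2, and over the 3 of KO between 67.7 and 99.5 CPM.

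**Figure D2:**
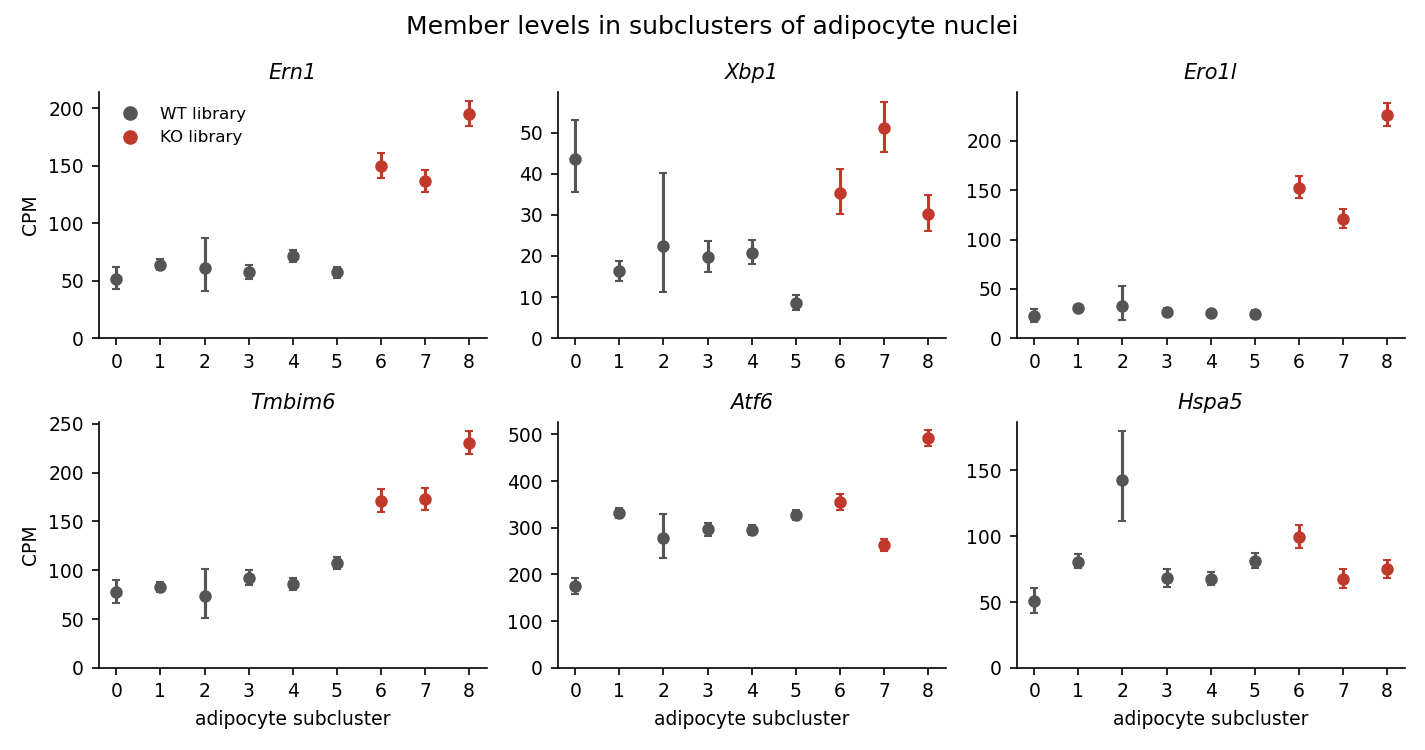
Levels of 6 of the genes in 9 subclusters of adipocyte nuclei, in CPM with exact 95% Poisson intervals, with WT in grey and KO in red. Only library parts with at least 100 nuclei are drawn. Ern1, Ero1l and Tmbim6 are higher in each KO subcluster than in each WT one, whereas for Xbp1, WT subcluster 0 lies among the KO values.

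In the other cell classes, in which Adipoq-Cre is not expected to act, fewer members passed 2-fold. Schwann and skeletal muscle nuclei, of which KO held 23 and 28, are left out of these counts. In ASPC nuclei, no member was at least 2-fold higher (5.33% of all genes were) and 1, Dnajb9, was at least 2-fold lower (11.1% of genes). Endothelial nuclei gave the same result, with backgrounds of 2.92% and 12.7%. Dnajb9 lay just past the cut there, at a log2 ratio of -1.01 (-1.73 to -0.34) on 99 WT and 23 KO UMIs. No member passed 2-fold in immune nuclei, where 6.51% of genes were higher and 11.0% lower. Nor did any of the 9 with at least 50 UMIs in mural nuclei, where the shares were 4.0% and 11.1%. Dnajb9 had 25 UMIs in mural nuclei and was not counted there. The median log2 ratio of the members was -0.25 for ASPCs, 0.03 for endothelial nuclei, -0.15 for immune nuclei and 0.21 for mural nuclei. Over all genes it was -0.04, -0.04, -0.02 and 0.01 in the same order.

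**Figure D3:**
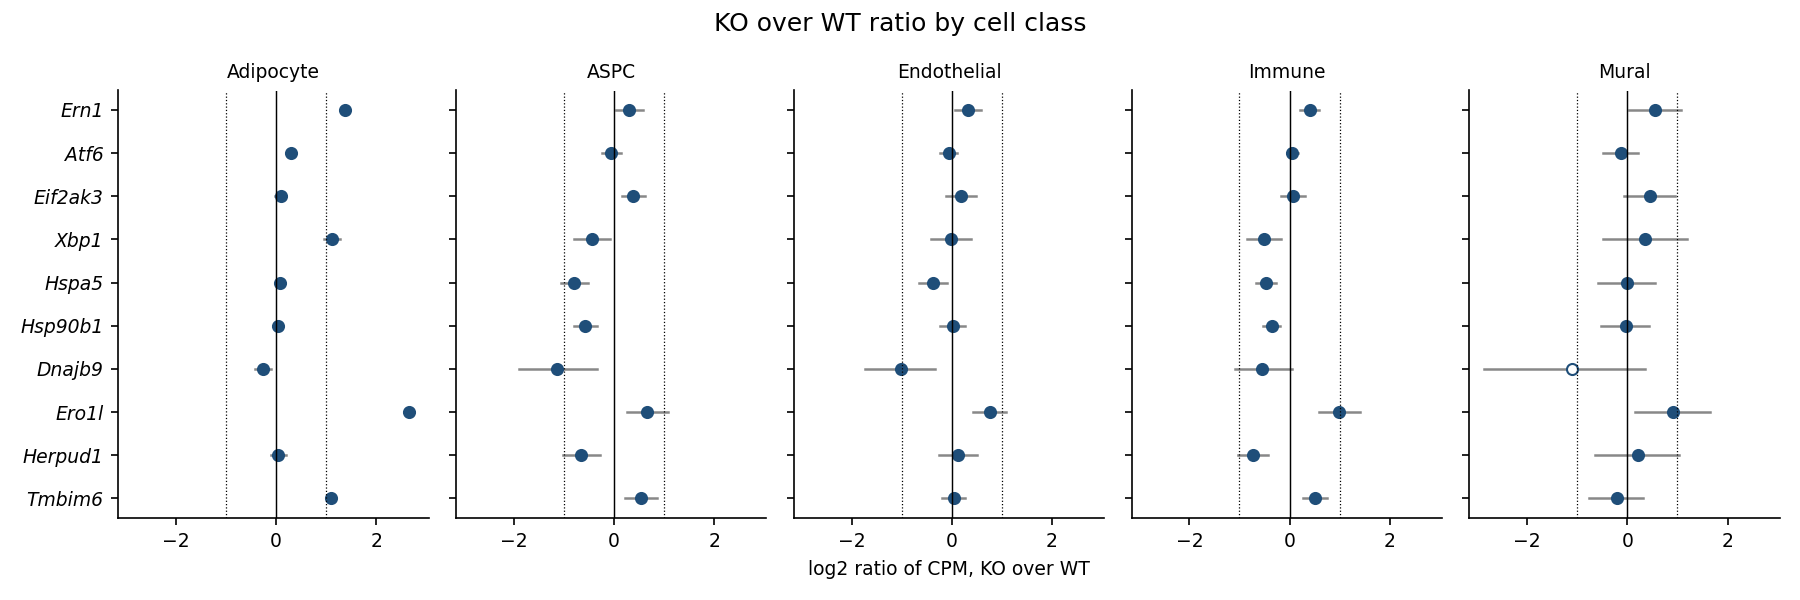
Log2 ratio of CPM, KO over WT, for each gene in 5 cell classes, with exact conditional 95% intervals. Dotted lines mark 2-fold and the open point is a gene with fewer than 50 UMIs. Ero1l lies right of 0 in each class and past 2-fold in adipocyte nuclei, while Dnajb9 lies left of 0 throughout.

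Ero1l was higher in KO in each of the 4 other classes. It was 34.1 CPM in WT and 54.1 CPM in KO ASPC nuclei, with a log2 ratio of 0.66 (0.27 to 1.09), and 32.8 and 55.4 CPM in endothelial nuclei, with 0.76 (0.42 to 1.09). In immune nuclei it was 25.9 and 51.4 CPM, with 0.99 (0.59 to 1.41), and in mural nuclei 25.0 and 46.7 CPM, with 0.90 (0.15 to 1.65). Adipocyte RNA was present in these nuclei too. Adipoq was at 50.4% of its adipocyte level in WT endothelial nuclei and at 14.6% in KO. Trib3, which was higher in KO adipocyte nuclei, was 6.79 CPM in WT and 6.07 CPM in KO endothelial nuclei. Its endothelial level was thus not higher in KO, and it gives no measure of adipocyte RNA there. When the part of the adipocyte profile given by Adipoq was subtracted from each class, the log2 ratio of Ero1l became 0.26 for ASPCs and 0.74 for immune nuclei, but -0.12 for endothelial and -0.11 for mural nuclei. With the part given by all 8 adipocyte markers instead, it was -0.33 for ASPCs and 0.56 for immune nuclei. The Ero1l ratio thus stayed above 0 under both subtractions in immune nuclei only, and changed sign in endothelial and mural nuclei.

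Ern1 was also higher in each class, by log2 ratios of 0.31 for ASPCs, 0.33 for endothelial cells, 0.40 for immune cells and 0.56 for mural cells, all with intervals above 0. After subtraction of the Adipoq part these were 0.07, 0.00, 0.07 and 0.35, and after that of the 8 markers -0.01, -0.23, 0.28 and 0.20. Tmbim6 was 56.1 and 81.0 CPM in ASPC nuclei, a log2 ratio of 0.53 (0.22 to 0.86), and 74.8 and 106 CPM in immune nuclei, a ratio of 0.50 (0.26 to 0.74). In endothelial and mural nuclei its intervals included 0. Under the Adipoq and the 8-marker subtractions the Tmbim6 ratio was 1.02 and 0.33 in ASPC, 0.57 and 0.41 in immune, -0.27 and -0.57 in endothelial and -0.70 and -1.21 in mural nuclei.

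Hspa5, Herpud1 and Hsp90b1 were lower in KO in ASPC and immune nuclei. Hspa5 was 93.9 CPM in WT and 54.2 CPM in KO ASPC nuclei, a log2 ratio of -0.79 (-1.05 to -0.53). It was 124 and 89.3 CPM in immune nuclei, with -0.47 (-0.66 to -0.27), and 76.4 and 59.1 CPM in endothelial nuclei, with -0.37 (-0.66 to -0.10). Herpud1 had log2 ratios of -0.65 (-1.01 to -0.27) in ASPC and -0.73 (-1.02 to -0.42) in immune nuclei, and Hsp90b1 of -0.57 and -0.36. In endothelial nuclei, by contrast, Herpud1 was at 0.13 and Hsp90b1 at 0.02, and in mural nuclei Herpud1 was at 0.21, Hsp90b1 at -0.04 and Hspa5 at -0.01, all with intervals that included 0. These 3 genes were lower in KO in ASPC and immune nuclei with and without the Adipoq part, which gave Hspa5 ratios of -1.004 and -0.73. For Dnajb9, ASPC nuclei held 20 WT and 57 KO UMIs, or 12.2 and 5.52 CPM, with a log2 ratio of -1.14 (-1.90 to -0.33). This ratio turned to 0.73 after the subtraction, on 2.55 and 4.23 CPM, and was -2.17 with the part given by the 8 markers, so its direction in ASPC nuclei rested on that step. The same held in immune nuclei, where the Dnajb9 ratio was -0.54 (-1.10 to 0.06). It became 0.26 without the Adipoq part and -0.52 without the part given by the 8 markers. In endothelial and mural nuclei the Dnajb9 ratio was below 0 before and after both subtractions, though the mural value rested on 20 WT and 5 KO UMIs. The endothelial ratio was -0.33 without the Adipoq part, short of 2-fold, and -1.53 without the part given by the 8 markers.

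Xbp1 took opposite directions. In ASPC nuclei it was 47.5 CPM in WT and 34.9 CPM in KO, a log2 ratio of -0.45 (-0.80 to -0.07), and in immune nuclei 41.7 and 29.2 CPM, with -0.52 (-0.84 to -0.17). The interval of the Atf6 ratio included 0 in all 4 classes. Without the Adipoq part its ratio was 0.87 in ASPC, 1.39 in endothelial, 0.95 in mural and -0.07 in immune nuclei, whereas without the part given by the 8 markers it was between -0.10 and 0.01, so the near-equal level of Atf6 in ASPC, endothelial and mural nuclei rested on how that part was set. Eif2ak3 was 115 CPM in WT and 150 CPM in KO ASPC nuclei, where it had its highest level of the 5 classes in both libraries, with a log2 ratio of 0.38 (0.17 to 0.61). The Eif2ak3 ratio in ASPC nuclei was 0.02 without the Adipoq part and 0.32 without the part given by the 8 markers, so its size rested on that step.

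The order of classes changed with the genotype for some genes. Xbp1 in WT was highest in ASPC nuclei and lowest, at 17.6 CPM, in adipocyte nuclei, a span of 2.71-fold in which each neighbour in the order overlapped the next. In KO the adipocyte nuclei ranked first and the span was 1.30-fold, again with all neighbours overlapping. Ero1l spanned 1.37-fold over the classes in WT, with no neighbours apart, and 3.62-fold in KO, where adipocyte nuclei stood above all others. Tmbim6 in KO was likewise highest in adipocyte nuclei, with a span of 3.03-fold. Ern1, Hspa5, Atf6 and Hsp90b1 were highest in immune nuclei of both libraries, although in KO the intervals of immune and adipocyte nuclei overlapped for Ern1 and Atf6, and in WT those of immune and ASPC nuclei overlapped for Hspa5. Herpud1 spanned 2.01-fold in WT, from immune to mural nuclei, and 1.19-fold in KO, with neighbours overlapping in both. Dnajb9 was highest in adipocyte nuclei of both.

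Further genes of ER functions and of linked stress responses were described by 6 lists of 110 genes. Of the 110, 104 had at least 50 UMIs in adipocyte nuclei. Of these, 16 were at least 2-fold higher in KO and 6 at least 2-fold lower, or 15.4% and 5.77%, against 19.7% and 17.1% of all genes. The median log2 ratio of the lists was 0.07, against 0.08 over all genes. Sdf2l1, Clgn, Fkbp11, Derl3, Creb3l4 and Ern2 fell below the minimum. The lists are ordered by role below.

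**Figure D4:**
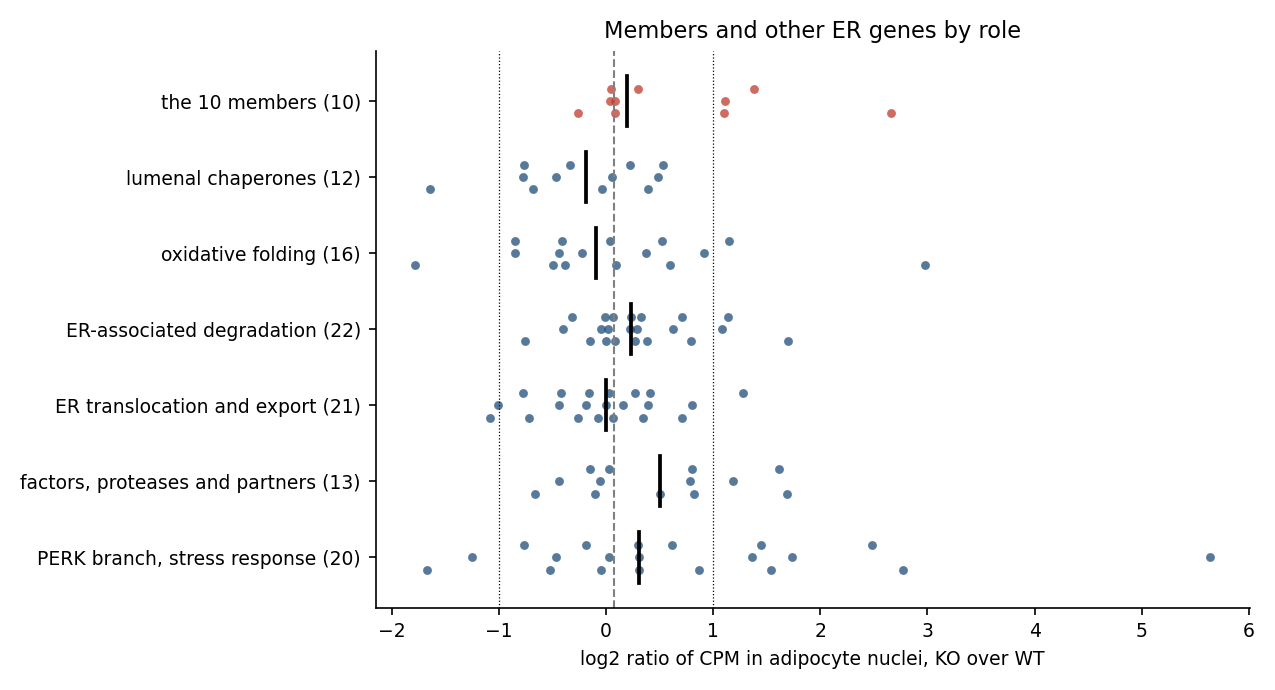
Log2 ratio of CPM in adipocyte nuclei, KO over WT, for the 10 members (red) and the genes of 6 lists (blue), with the number of genes in brackets. Black bars are list medians, the dashed line is the median of all genes and dotted lines mark 2-fold. The lumenal chaperones lie mostly between the dotted lines and the list of the PERK branch spreads furthest, to Trib3 at 5.64.

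Among 12 lumenal chaperones and co-chaperones, none was at least 2-fold higher and 1 was at least 2-fold lower, with a median of -0.19. The lower gene was Manf, which encodes a secreted ER stress-inducible factor, at 58.8 CPM in WT and 18.8 CPM in KO. Next lowest were Calr, the lectin chaperone calreticulin, at a log2 ratio of -0.78 and the prolyl isomerase gene Fkbp2 at -0.76. The highest were Dnajc10 at 0.54, the BiP exchange factor gene Sil1 at 0.48 and Creld2 at 0.39 (-0.18 to 0.94). The ratios of Hspa5 and Hsp90b1 lay inside the range of these chaperone genes.

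Of 16 genes of oxidative folding, 2 were at least 2-fold higher (12.5%) and 1 at least 2-fold lower (6.25%), with a median of -0.10. Qsox1, a sulfhydryl oxidase that acts apart from Ero1l, was 8.09 CPM in WT and 63.8 CPM in KO, a log2 ratio of 2.98 (2.80 to 3.16). Tmx3, a membrane thioredoxin, differed by 1.15, and P4hb, the protein disulfide isomerase that Ero1l reoxidizes, by 0.92. The lowest were Tmx4 at -1.78, Erp29 at -0.85 and Pdia5 at -0.85. The oxidase genes Ero1l and Qsox1 were higher in KO, whereas Ero1lb, at 0.10, hardly differed and the list was not higher on balance.

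Of 22 genes of ER-associated degradation, 3 were at least 2-fold higher (13.6%) and none lower, with a median of 0.23. These were Derl1, a part of the retrotranslocation channel, at 65.6 and 212 CPM (log2 1.70), Edem1, which directs misfolded glycoproteins to degradation, at 1.14, and Sel1l, the adaptor of the ligase HRD1, at 1.08. The lowest were Ngly1 at -0.76, Erlec1 at -0.40 and Ubxn4 at -0.32. Herpud1 lay among the majority that differed less than 2-fold.

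Of 21 genes of translocation and export, 1 was at least 2-fold higher and 2 lower, with a median of -0.01. Sec24d, of the COPII coat, was at 1.28, Spcs2 at 0.80 and Tram1 at 0.71, while Ssr4 was at -1.08, Sar1b, the COPII GTPase, at -1.01 and the signal recognition particle receptor gene Srpr at -0.77.

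Of 13 transcription factors, proteases and partners of the sensors, 3 were at least 2-fold higher (23.1%, against 19.7% of all genes) and none lower, with a median of 0.51. They were Creb3l1 at 1.69, on 3.05 and 9.85 CPM, Wfs1, an ER membrane protein that restrains ATF6, at 1.62 and Nfe2l1, a factor of proteasome genes, at 1.19. The lowest were Bfar at -0.66, Ghitm at -0.44 and Creb3 at -0.15 (-0.46 to 0.16). Ghitm belongs to the TMBIM family, as does Tmbim6, and the 2 genes had opposite signs. Tmbim4, of the same family, was at -0.105 (-0.252 to 0.041).

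The list of the PERK branch and the integrated stress response had 7 of 20 genes at least 2-fold higher (35.0%, against 19.7% of all genes) and 2 lower (10.0%, against 17.1%), with a median of 0.31. Trib3, a pseudokinase gene induced through ATF4 and CHOP, was 1.23 CPM in WT and 61.2 CPM in KO, a log2 ratio of 5.64 (5.23 to 6.08). Atf5 was at 2.77 and Chac1, on 0.467 and 2.61 CPM, at 2.48 (1.68 to 3.34). The lowest were Ddit4 at -1.67, Cebpb at -1.26 and Vldlr at -0.77. This spread stood beside an Eif2ak3 level that hardly differed. Atf4 itself, whose protein is controlled by translation, was 56.8 CPM in WT and 41.0 CPM in KO, and Ddit3, which encodes CHOP, was 35.4 and 43.8 CPM. Both were named after their values were seen.

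The genes with ERSE or ERSE-II in their promoter, 49 in all, offered a further description. Of these, 26 had at least 50 UMIs in adipocyte nuclei, among them Hspa5, Hsp90b1 and Herpud1, and their median log2 ratio was 0.05, with 2 at least 2-fold higher and 2 lower, 7.69% in each direction against 19.7% and 17.1% of all genes. The higher ones were Gm20560 and Rcl1 and the lower ones Adcy3 and Gm6566, named after their values were seen.

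The profile of the members over the 10 sums of 5 classes and 2 libraries was not uniform. Pearson's r of log2 CPM between pairs of members ran from -0.81 for Eif2ak3 and Dnajb9 to 0.88 for Hspa5 and Hsp90b1. Ero1l and Tmbim6 had r = 0.77, and Herpud1 had 0.78 with Hsp90b1 and 0.77 with Hspa5. The 10 sums share 2 libraries and their depth, so these values are descriptions. The mean standardized profile of the 10 members was most like those of Mettl9 (r = 0.95), Aldh2 (0.93), Npc1 (0.91), Zfc3h1 (0.91) and Sel1l (0.91), out of 4747 genes with at least 20 UMIs in every sum. Aldh2 was 36.8 CPM in WT and 65.2 CPM in KO adipocyte nuclei, and the other four were between 2 and 3 times as high in KO as in WT.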

How the data were processed

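Per the labels and methods, nuclei of brown adipose tissue were sequenced on the 10x Genomics platform, and the authors made the deposited UMI counts per gene and barcode with Cell Ranger (5.0.0 in the submitters' processing notes, which also name Seurat 3.1.1; the methods state an earlier Cell Ranger version) on the mouse genome mm10. Whether intronic reads were counted was not given in the sources used here. From these counts, barcodes were kept that had 200 or more genes, lay within 3 median absolute deviations of the library in both log UMIs and log genes, and had no more than 10% mitochondrial UMIs. Each nucleus was assigned to 1 of 7 classes by the share of UMIs from 8 markers a class, less the 25th percentile of its library and divided by the 99th percentile of both libraries. A call needed a score of 0.25, 2 times the next class and 10 marker UMIs. For Schwann cells 3 markers that ASPC nuclei also carried were left out, after the data were seen. Doublets were kept in the main values. UMIs were summed by class and library and scaled to CPM, with exact 95% Poisson intervals, and log2 ratios had exact conditional binomial intervals. The ratio and interval script was checked on simulated counts. Subclusters and alternative classes came from Leiden clustering (scanpy, 2000 variable genes without the members and lists, 30 components, 15 neighbours, resolution 0.5). Genes named by rule were all members, the 3 highest and 3 lowest of each list, and the 5 nearest profiles. Ero1lb and Tmbim4 were named outside this rule, as were Atf4, Ddit3 and the further genes with ERSE or ERSE-II. The members, lists and rules were chosen with earlier results of these data known.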

Additional observations from a re-analysis of the deposited data

Results flagged for a closer look

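Xbp1 was marked because its KO over WT ratio took opposite signs in different cell classes, each with a counting interval that left out 0. Its log2 ratio was 1.11 (0.96 to 1.27) in adipocyte nuclei, against -0.45 (-0.80 to -0.07) in ASPC nuclei and -0.52 (-0.84 to -0.17) in immune nuclei. With 1 library per genotype the difference between classes was not tested. After subtraction of the Adipoq part, the ASPC and immune ratios were -0.91 and -0.93, of the same sign as before.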

How the results depend on the processing

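The same 4 genes, Ern1, Xbp1, Ero1l and Tmbim6, were at least 2-fold higher and none at least 2-fold lower under all 13 alternatives for the adipocyte nuclei, and the counts were 4 and 0 also with a fold of 1.5, which 30.3% of all genes passed upwards and 25.9% downwards. Over these alternatives, 16.7% to 27.3% of all genes were at least 2-fold higher and 14.8% to 19.0% at least 2-fold lower. The log2 ratio ran from 1.30 to 1.62 for Ern1, 1.04 to 2.01 for Xbp1, 2.58 to 3.11 for Ero1l and 1.02 to 1.32 for Tmbim6. Each upper end came from subtracting part of the endothelial level, where 27.3% of all genes were higher and the median over all genes was 0.193. The median ratio of the members, 0.19, moved to 0.455 with classes from named clusters, 0.341 with nuclei of 3000 to 10000 UMIs and 0.113 with ratios centred on the median of all genes; the cause was not tested. Hspa5 ran from -0.12 without subclusters 2, 3, 4 and 6 to 0.50 with classes from clusters, and Eif2ak3, Herpud1 and Hsp90b1 also took both signs, all short of 2-fold. Dnajb9 ran from -0.344 with ratios centred on the median to -0.009 with classes from clusters, so its lower level depended on the classes used. Of 130 single-gene values, 101 stayed within their counting interval, 29 moved beyond it and 0 of the called values changed sign. The alternative with a minimum of 200 UMIs left out no member, so its values equalled the main ones by construction and count among those that stayed. Leaving out the library baseline in the marker sums, the 4 subclusters and the adipocyte part of other classes were chosen after seeing the data. No paired analysis was possible because each genotype has 1 library and the labels carry no replicate numbers. Both the single library per genotype and depth limit these comparisons: Dnajb9 in mural nuclei and 6 list genes in adipocyte nuclei had fewer than 50 UMIs.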

Other observations

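Nuclei assigned to no class, 6029 in WT and 3548 in KO, had medians of 1519 and 2811 UMIs and also differed. In them Ern1 was 63.5 CPM in WT and 160 CPM in KO, Ero1l 29.6 and 140 CPM and Tmbim6 92.2 and 161 CPM. Hspa5 was 86.4 and 119 CPM there, the latter above its 79.0 CPM in KO adipocyte nuclei.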
